A study of Mus musculus with 6 samples.

Results

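Insulin signalling and GLUT4 transport were followed through 8 genes, the insulin receptor Insr, the adaptors Irs1, Irs2 and Grb14, the phosphoinositide 3-kinase (PI3K) regulatory subunit Pik3r1, the kinase Akt2, the Rab GTPase-activating protein Tbc1d4 and the glucose transporter Slc2a4. They were taken as the rows of the count table whose NCBI gene identifiers map to these symbols, 8 of 19790 identifiers in all, and all 8 passed the filter on low counts. The RNA was extracted from gonadal white adipose tissue (gWAT), a visceral depot lying along the testis, of male wild-type C57BL/6 mice kept for 8 weeks on a normal chow diet (NCD, 3 mice) or a high-fat diet (HFD, 3 mice). Feeding started at 6 weeks of age according to the sample labels, while the study's methods give a later age. The study also uses floxed mice without Cre as wild-type controls, and the labels do not say whether these mice were such controls. The comparison of the diets asks how the fat pad's transcripts changed with overnutrition.

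Insulin binds its receptor tyrosine kinase, which phosphorylates the insulin receptor substrates (IRS proteins). These recruit PI3K through its p85 regulatory subunit, and the lipid that PI3K makes brings AKT to the membrane, where it is activated. In adipocytes AKT2 phosphorylates TBC1D4 (AS160), which releases Rab proteins that carry vesicles with GLUT4, the product of Slc2a4, to the cell surface, and glucose uptake rises. GRB14 binds the activated receptor and inhibits it.

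One library stood apart before any comparison of diets. Depth was 49575113 to 66360046 counts per library, and 11 seminal vesicle secretory genes took 58.6%, 11.2% and 2.3% of the counts of NCD replicates 1, 2 and 3, against 2 to 8 counts in each HFD library. The summed level of 10 adipocyte markers, in CPM (reads of a gene per 1000000 counted) after TMM scaling ( the unit of all levels given as CPM here), was 8895 in NCD replicate 1, 33558 and 47427 in the other NCD mice and 14286 to 19773 on HFD. Much of this sum was Car3 and Cfd, at 12640 and 6340 CPM in NCD replicate 2 and 18732 and 8820 CPM in NCD replicate 3. On HFD they were at most at 3420 and 1052 CPM, so the sum does not stand for each marker. By edgeR at an adjusted p under 0.05, none of the 10 markers differed with all mice. Without NCD replicate 1, 5 of the 10 were lower and 0 higher. None of these 10 markers was at 0 in any library. Each of the 8 genes is therefore given with all 6 mice and without NCD replicate 1. Other pathway genes that differed between the diets only without that mouse are given mainly from that fit. That fit still holds seminal vesicle RNA, at 11.2% and 2.3% of the counts of NCD replicates 2 and 3. All 11 secretory genes were lower on HFD in it. Diet and this admixture are thus confounded in both fits and cannot be told apart. In bulk tissue, fewer cells of a type and less RNA per cell cannot be told apart.

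With all 6 mice, 2 of the 8 genes, Irs1 and Pik3r1, were lower on HFD at an adjusted p under 0.05 by edgeR's quasi-likelihood test, where 1.90% of the 15241 genes tested were lower. None of the 8 was higher, where 5.58% of all genes were. The count of higher genes was also 0 at an unadjusted p under 0.05 and by DESeq2 and limma. Without NCD replicate 1, 5 were lower (Irs1, Pik3r1, Slc2a4, Akt2 and Tbc1d4) and none was higher (also 0 at an unadjusted p under 0.05 and by DESeq2), where 10.1% and 10.7% of 15510 genes were lower and higher. The median log2 fold change of the 8 genes was -0.79 with 6 mice and -1.13 without that mouse, against -0.078 and 0.016 over all genes tested. The common biological coefficient of variation was 0.424 with all mice and 0.288 without NCD replicate 1.

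**Figure D1:**
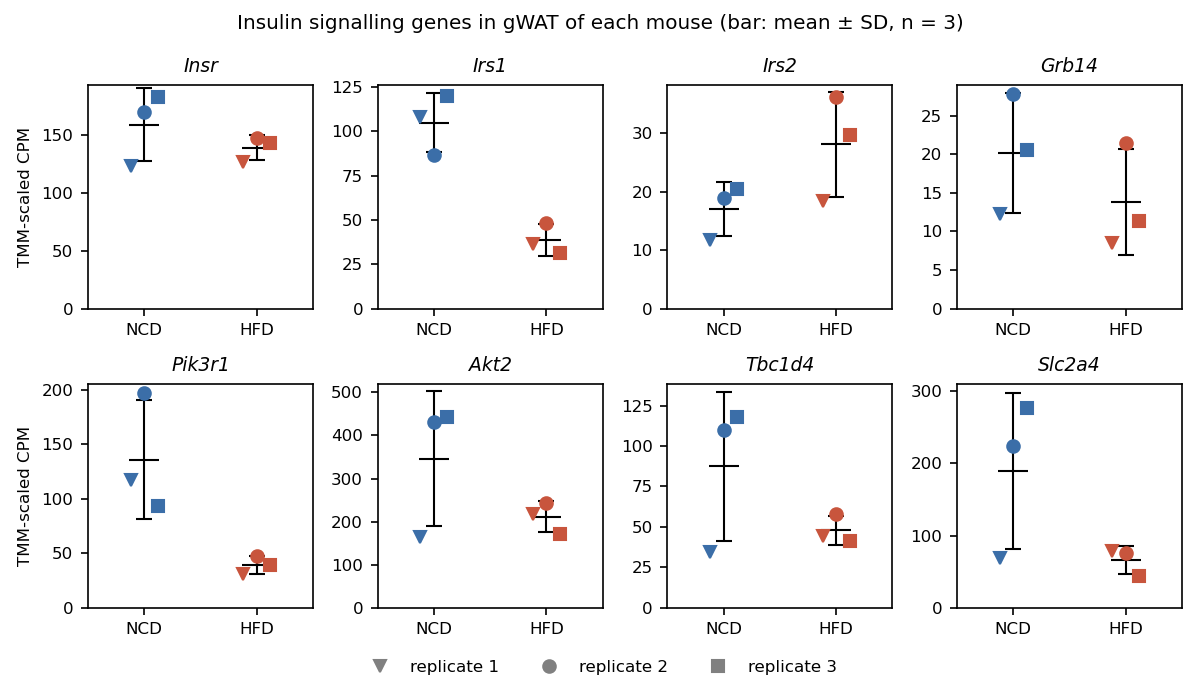
TMM-scaled CPM (linear axes from 0) of the 8 genes in each NCD (blue) and HFD (red) mouse, with bars for the mean ± SD of 3 mice. Irs1 and Pik3r1 separated by diet, and NCD replicate 1 (triangle) lay at 68.9 CPM for Slc2a4, 165 for Akt2 and 34.7 for Tbc1d4, among or below the HFD mice.

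Insr, the receptor itself (gene 16337, chr8:3150922-3279649 in GRCm38), was not shown to differ between the diets. Its level was 123, 170 and 183 CPM in NCD replicates 1, 2 and 3 and 127, 147 and 143 CPM in HFD replicates 1, 2 and 3. The groups overlapped through NCD replicate 1, the lowest of the 6 mice, and the other NCD mice were above all HFD mice. The log2 fold change was -0.19 (SE 0.199, adjusted p = 0.547 by edgeR) and -0.33 without NCD replicate 1 (SE 0.129, adjusted p = 0.125). Scaling by total counts alone turned its sign (0.25), but put the median gene at 0.45.

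Irs1 (gene 16367, chr1:82233105-82291439), one of the main IRS adaptors that dock PI3K, fell on HFD. It was counted at 108, 86.7 and 120 CPM in the NCD mice and at 36.3, 48.4 and 31.1 CPM in the HFD mice. Every HFD mouse was below every NCD mouse, a separation seen downward in 18.7% of all genes tested and upward in 20.5%, and NCD replicate 1 lay between the other NCD mice. The mean was 105 ± 16.9 CPM on NCD and 38.6 ± 8.91 CPM on HFD (SD, n = 3), 2.72-fold lower in the fit (log2 fold change -1.44, SE 0.225, adjusted p = 0.0253 by edgeR). The removal of NCD replicate 1 left -1.41 (SE 0.235, adjusted p = 0.0152). Leaving out 1 of the other 5 mice gave an adjusted p of 0.0649 to 0.107 at a log2 fold change of -1.62 to -1.29, so the call was lost whenever 1 of these 5 was missing.

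Irs2 (gene 384783, chr8:10984681-11008929), the second main IRS adaptor, had the opposite sign. Its level was 11.8, 19.0 and 20.5 CPM on NCD and 18.5, 36.2 and 29.7 CPM on HFD. HFD replicate 1 lay within the NCD range while the other HFD mice were above it. The log2 fold change of 0.72 (SE 0.323) had an adjusted p of 0.199 by edgeR, and without NCD replicate 1 it was 0.53 (SE 0.291, adjusted p = 0.243). Irs2 was thus not shown to differ between the diets.

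The count ratio of Irs1 to Irs2 within a library does not depend on scaling between libraries. Irs1 had 9.12, 4.56 and 5.87 counts per count of Irs2 in the NCD mice and 1.96, 1.34 and 1.05 in the HFD mice. The ranges were separate, with the lowest NCD ratio above the highest HFD ratio. The mean log2 ratio went from 2.64 ± 0.506 to 0.49 ± 0.456 (SD, n = 3 per diet), a difference of -2.16, and of -1.89 without NCD replicate 1. The exact two-sided permutation p was 0.1, the smallest that 3 against 3 allows, and 0.200 after adjustment over the 8 ratios computed.

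The bases upstream of the start sites of Irs1 and Irs2 are shown because these adaptors had opposite signs and because both windows hold the same pair of short motifs, noticed after a scan. The motifs searched on both strands were CACGTG, an E-box read by basic helix-loop-helix factors, TGTTTTG, a core of the insulin response element, and TGTTTAC, a forkhead motif. Sequences are RefSeq's on GRCm38.p6, from 30 bases before the E-box to the last base before the annotated start, with the first 2 motifs in capitals. Irs1 lies at chr1:82291440-82291584 and Irs2 at chr8:11008930-11009003, both on the minus strand and written 5′ to 3′.
Irs1: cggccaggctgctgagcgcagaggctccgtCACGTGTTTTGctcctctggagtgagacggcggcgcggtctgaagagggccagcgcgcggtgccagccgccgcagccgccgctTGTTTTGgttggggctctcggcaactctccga
Irs2: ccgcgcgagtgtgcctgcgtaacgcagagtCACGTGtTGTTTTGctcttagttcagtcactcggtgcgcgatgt

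In Irs1 the E-box began 115 bases before the start and shared 2 letters with a TGTTTTG that began at 111, and a second TGTTTTG began at 32. In Irs2 the E-box began 44 bases before the start and TGTTTTG at 37, with 1 base between them. Among 32851 mouse windows of 250 bases before to 50 after a start, 7.15% held CACGTG, 6.28% TGTTTTG, 3.65% TGTTTAC and 0.408% both of the first pair. Windows were found for 6 of the 8 genes (10 windows), of which Irs1 and Irs2 held the first pair and none held TGTTTAC. A match of letters is a description of the window and not a binding site.

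Grb14 (gene 50915, chr2:64912476-65022766), the inhibitory adaptor, had the largest SD relative to its mean on HFD of the 8 genes (13.8 ± 6.87 CPM, SD, n = 3). Its level was 12.2, 27.8 and 20.5 CPM on NCD and 8.50, 21.5 and 11.3 CPM on HFD. The groups overlapped, with HFD replicate 2 above 2 of the NCD mice. The log2 fold change was -0.55 (SE 0.445, adjusted p = 0.437 by edgeR) and -0.79 without NCD replicate 1 (SE 0.405, adjusted p = 0.212). Against Grb10, a related receptor-binding adaptor, the log2 count ratio differed by -0.76 (exact permutation p = 0.200, adjusted 0.320), with overlapping groups.

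Pik3r1 (gene 18708, chr13:101680761-101768217), which encodes the p85α, p55α and p50α regulatory subunits of PI3K, had the lowest log2 fold change of the 8 with all mice. Its level was 117, 197 and 93.0 CPM on NCD and 30.9, 47.1 and 39.1 CPM on HFD. No HFD mouse reached the lowest NCD mouse, and NCD replicate 2 was well above the other NCD mice. The mean was 136 ± 54.6 CPM on NCD and 39.0 ± 8.06 CPM on HFD (SD, n = 3), 3.48-fold lower in the fit (log2 fold change -1.80, SE 0.330, adjusted p = 0.0347 by edgeR). Without NCD replicate 1 it was -1.88 (SE 0.342, adjusted p = 0.0188), and leaving out 1 of the other 5 mice gave an adjusted p of 0.0706 to 0.144.

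Pik3r2, the gene of the p85β subunit, was at -0.47 (SE 0.158, adjusted p = 0.116 by edgeR), and at -0.51 without NCD replicate 1 (SE 0.142, adjusted p = 0.0550). Pik3r1 had 2.68, 3.60 and 2.08 counts per count of Pik3r2 on NCD and 0.838, 1.29 and 1.28 on HFD, again without overlap. The mean log2 ratio differed by -1.28 (exact permutation p = 0.1, adjusted 0.200). Per kilobase of exon, Pik3r1 held 46.8% ± 8.16 of the reads of the genes Pik3r1, Pik3r2 and Pik3r3 on NCD and 26.0% ± 4.22 on HFD (SD, n = 3).

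Akt2 (gene 11652, chr7:27591552-27640826), the AKT isoform that insulin-stimulated glucose uptake in fat depends on most, had levels of 165, 431 and 442 CPM on NCD and 218, 243 and 172 CPM on HFD. NCD replicate 1 was below all HFD mice and the other NCD mice were above them. With 6 mice the log2 fold change was -0.71 (SE 0.405, adjusted p = 0.286 by edgeR). Removing NCD replicate 1 gave -1.03 (SE 0.180, adjusted p = 0.0168), 2.05-fold lower.

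The ratio of Akt2 to Akt1 moved in the same way with the choice of mice. It was 0.895, 3.32 and 3.96 on NCD and 1.37, 1.65 and 1.03 on HFD. The log2 difference was -0.78 with all mice (exact permutation p = 0.400, adjusted 0.533) and -1.45 without NCD replicate 1. Akt1 itself was at 0.16 (SE 0.224, adjusted p = 0.668 by edgeR), and at 0.40 without NCD replicate 1 (SE 0.134, adjusted p = 0.0846).

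Tbc1d4 (gene 210789, chr14:101442360-101609281), the AKT substrate that holds back GLUT4 vesicles, had levels of 34.7, 110 and 118 CPM on NCD and 44.3, 58.1 and 41.6 CPM on HFD. As for Akt2, only NCD replicate 1 lay below the HFD mice. The log2 fold change was -0.86 (SE 0.457, adjusted p = 0.259 by edgeR) and, without NCD replicate 1, -1.23 (SE 0.170, adjusted p = 0.0101).

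Tbc1d1, its paralogue with the same Rab-directed domain, rose on HFD (0.99, SE 0.195, adjusted p = 0.0398 by edgeR). Its level was 22.9, 30.4 and 27.7 CPM on NCD and 48.8, 46.8 and 65.2 CPM on HFD. Tbc1d4 had 1.52, 3.61 and 4.25 counts per count of Tbc1d1 on NCD and 0.909, 1.24 and 0.638 on HFD, with no overlap even with NCD replicate 1. The log2 ratio differed by -1.67 (exact permutation p = 0.1, adjusted 0.200) and by -2.13 without that mouse.

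Slc2a4 (gene 20528, chr11:69942286-69948216), the gene of GLUT4, was at 68.9, 224 and 276 CPM on NCD and at 79.1, 75.5 and 43.7 CPM on HFD. NCD replicate 1 fell inside the HFD range, and the other NCD mice were well above it. With all mice the log2 fold change was -1.52 (SE 0.535, adjusted p = 0.125 by edgeR; DESeq2 gave 0.0293). Without NCD replicate 1 it was -1.91 (SE 0.276, adjusted p = 0.0112 by edgeR), 3.76-fold lower and the lowest of the 8 genes in that fit.

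**Figure D2:**
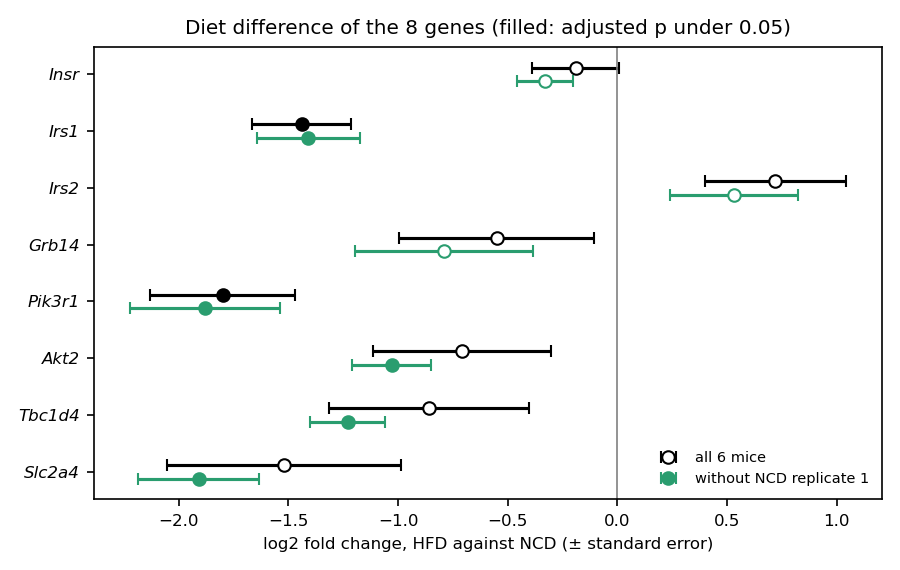
Log2 fold change of HFD against NCD (horizontal axis, ± standard error) for the 8 genes by edgeR with all 6 mice (black) and without NCD replicate 1 (green), with filled points at an adjusted p under 0.05. Irs1 and Pik3r1 were filled in both fits, and Slc2a4, Akt2 and Tbc1d4 only without NCD replicate 1.

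Adiponectin (Adipoq), a secreted adipocyte product, served as a partner gene within each library. Slc2a4 had 0.130, 0.132 and 0.102 counts per count of Adipoq in NCD replicates 1, 2 and 3 and 0.0484, 0.0457 and 0.0383 in the HFD mice. NCD replicate 1 was between the other NCD mice on this ratio, although its TMM-scaled Slc2a4 level was inside the HFD range. The log2 difference was -1.46 (exact permutation p = 0.1, adjusted 0.200) and -1.40 without NCD replicate 1.

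The sign depended on the partner for a minority of markers. With each of the 10 adipocyte markers as partner, chosen after the data had been seen, the Slc2a4 ratio was lower in every HFD mouse than in any NCD mouse for 8, and higher for 2. Those 2 were Car3, a carbonic anhydrase (0.50), and Cfd, the adipokine adipsin (1.52), which had log2 fold changes of -2.12 and -3.02 themselves (SE 0.824 and 0.762, adjusted p = 0.151 and 0.0650 by edgeR). Both were lower without NCD replicate 1, at -2.55 and -3.42 (SE 0.437 and 0.491, adjusted p = 0.0163 and 0.0111 by edgeR). The differences ran from -2.68, with leptin (Lep), to 1.52. All 10 ratios share Slc2a4 and the same mice, so they are not 10 separate results. With Adipoq as partner, 6.17% of the other genes tested had a lower ratio in every HFD mouse, and no such share was computed for the other partners.

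Against Adipoq, the other genes split. Irs1 (-1.57), Pik3r1 (-1.86), Tbc1d4 (-0.80) and Akt2 (-0.71) had lower ratios in every HFD mouse than in any NCD mouse, a separation seen in 6.17% of the other genes tested, whereas Insr (-0.28), Irs2 (0.59) and Grb14 (-0.70) overlapped. The removal of NCD replicate 1 moved these log2 differences to -0.87 for Irs1, -1.26 for Pik3r1, -0.70 for Tbc1d4 and -0.50 for Akt2. It moved Irs2 to 1.02 and Grb14 to -0.35 and turned the sign of Insr, to 0.21. For Pik3r1 per Adipoq the separation was a near tie, at 0.0345 in NCD replicate 3 and 0.0343 in HFD replicate 3. NCD replicates 1 and 2 were at 0.220 and 0.116. For each of these other genes the NCD ratio to Adipoq fell from replicate 1 to 2 to 3. The seminal vesicle share of these libraries fell in the same order (58.6%, 11.2% and 2.3%), and its part in the ratios was not tested. For Akt2 the lowest NCD ratio was 0.164 and the highest HFD ratio 0.151. Irs1 per Adipoq was 0.203 in NCD replicate 1, against 0.0509 and 0.0446 in the other NCD mice and 0.0222 to 0.0293 on HFD. For Irs1, then, NCD replicate 1 stood apart on this ratio and not on the TMM-scaled level, the reverse of Slc2a4.

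The ratios that used a partner high in NCD replicate 1 gave no separation. Slc2a4 had 0.556, 8.59 and 16.0 counts per count of Slc2a1, the basal glucose transporter GLUT1, on NCD and 3.45, 2.79 and 1.03 on HFD. The log2 difference was -0.98 (exact permutation p = 0.600, adjusted 0.686), and -2.45 without NCD replicate 1. Insr per Igf1r, the related receptor for insulin-like growth factor 1, was 0.496, 4.32 and 6.74 on NCD and 5.41, 5.21 and 5.14 on HFD. Its log2 difference of 1.11 (exact permutation p = 0.7, also after adjustment) became -0.039 without that mouse, in which Igf1r reached 248 CPM against 23.5 to 39.4 CPM in all others.

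**Figure D3:**
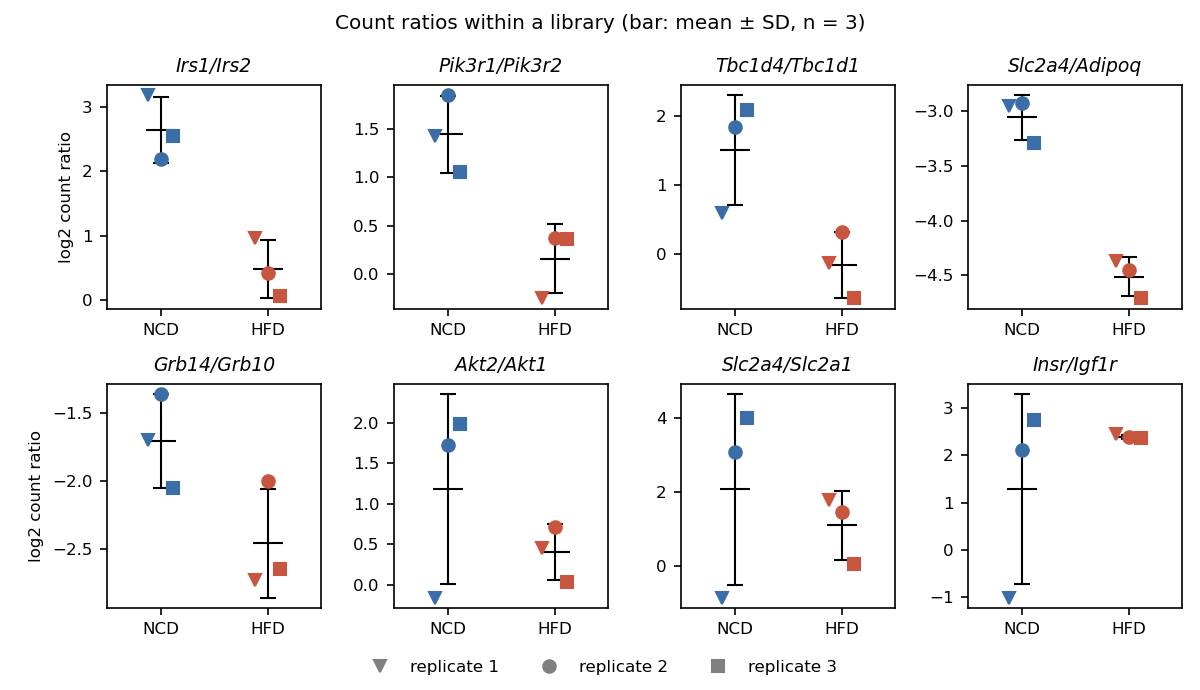
Log2 of the count ratio within a library (vertical axes, which differ in range) for 8 gene pairs in NCD (blue) and HFD (red) mice, with bars for the mean ± SD of 3 mice. In Irs1/Irs2, Pik3r1/Pik3r2, Tbc1d4/Tbc1d1 and Slc2a4/Adipoq every HFD mouse lay below every NCD mouse, and in Akt2/Akt1, Slc2a4/Slc2a1 and Insr/Igf1r NCD replicate 1 (triangle) lay below the other 5 mice.

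Levels of different genes were compared per kilobase of exon (FPKM on the TMM scale). On NCD, Akt2 (71.7 ± 32.5 FPKM) and Slc2a4 (67.6 ± 38.4) led, and they did not differ from each other beyond the spread between mice, taken as the SD of their log2 difference. Pik3r1 (18.0 ± 7.22), Insr (17.0 ± 3.37), Tbc1d4 (13.1 ± 6.85), Irs1 (11.5 ± 1.85) and Grb14 (10.2 ± 3.91) followed as a block in which no neighbours differed beyond that spread. Irs2 (2.70 ± 0.733 FPKM, SD, n = 3) was last, below Grb14 in 3 of 3 mice.

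On HFD the order changed below the first pair. Akt2 (43.7 ± 7.49 FPKM) was above Slc2a4 (23.6 ± 6.95) in 3 of 3 mice, and Insr (14.9 ± 1.14) came next. Tbc1d4 (7.20 ± 1.33), Grb14 (6.93 ± 3.46) and Pik3r1 (5.16 ± 1.07) followed, and neither Tbc1d4 and Grb14 nor Grb14 and Pik3r1, neighbours in this order, differed beyond the spread. Pik3r1 was above Irs2 (4.45 ± 1.42) in 3 of 3 mice, and Irs2 and Irs1 (4.22 ± 0.975 FPKM, SD, n = 3) ended at like levels, with a mean log2 difference of 0.047 (SD 0.456).

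**Figure D4:**
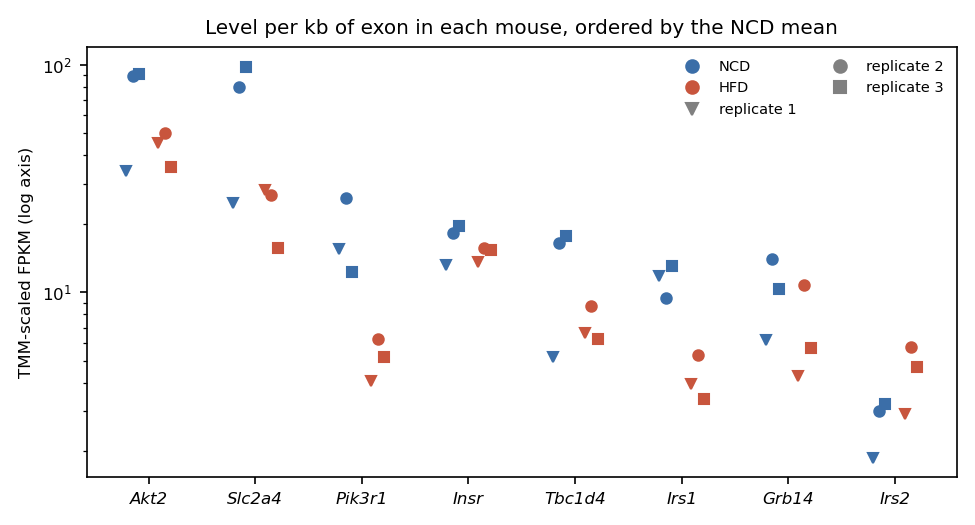
TMM-scaled FPKM (log axis) of the 8 genes in each NCD (blue) and HFD (red) mouse, ordered by the NCD mean. Irs1 went from 11.5 FPKM on NCD to 4.22 on HFD and met Irs2, which was at 2.70 and 4.45.

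Within the IRS family the third member, Irs3, an adaptor gene active in rodent fat, held the largest mean share per kilobase on both diets. It made up 25.5%, 57.1% and 57.9% of the 4 genes on NCD and 77.7%, 69.2% and 57.6% on HFD. Irs1 made up 41.4% ± 14.5 on NCD and 15.1% ± 2.52 on HFD, and Irs2 9.27% ± 0.986 and 16.7% ± 7.60 (SD, n = 3). In NCD replicate 1 Irs1 was the largest at 58.1%. Irs3 itself was at a log2 fold change of 0.43 (SE 0.574, adjusted p = 0.644 by edgeR), and at 0.033 without NCD replicate 1 (SE 0.369, adjusted p = 0.959).

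The rest of the pathway was read from 6 lists holding 86 genes, all of which passed the filter. With all mice 6 were higher and 2 lower on HFD at an adjusted p under 0.05 by edgeR (6.98% and 2.33% of the 86), and without NCD replicate 1 there were 8 higher and 12 lower (9.3% and 14%). These shares were near those of all genes tested, 5.58% and 1.90% with all mice and 10.7% and 10.1% without that mouse, so the counts are no result about the pathway as a whole. The median log2 fold change of the 86 was -0.20 and -0.082 in those fits. When 1 mouse other than NCD replicate 1 was left out, none of the 86 passed, with 16 to 26 at an unadjusted p under 0.05, in fits that called 2 to 7 genes of the whole table. Of the 8 called with all mice, Pik3cd, Enpp1 and Slc2a5 passed in 10 of 16 alternative settings, Slc2a13 in 9, Tbc1d1 and Lnpep in 8, Grb2 in 5 and Ptpn1 in 4, with the sign kept in all 16. The genes named below that were called only without NCD replicate 1 passed in fewer. Ralgapa2, Lrp1 and Slc2a9 passed in 3 of 16 settings, and Sort1 and Slc2a8 in 2. Sh2b2, Pik3cb, Pde3b, Foxo1 and Eif4ebp1 passed in 1 of 16, and Irs4 in 1 of 15.

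**Figure D5:**
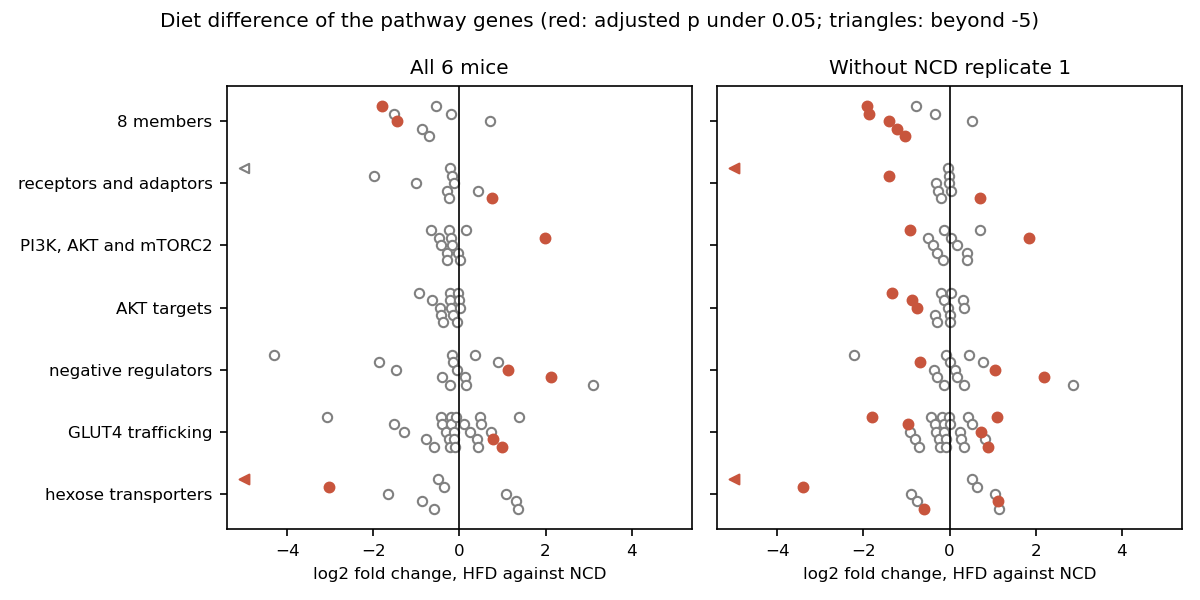
Log2 fold change of HFD against NCD for the 8 genes and for 86 genes in 6 pathway lists, with all 6 mice (left) and without NCD replicate 1 (right). Red points passed an adjusted p under 0.05, triangles lie beyond -5, and 8 of the 86 are red on the left and 20 on the right.

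Among 10 receptors and adaptors, 1 rose with all mice. Grb2, which links receptors to the RAS pathway, was at 76.2, 91.3 and 82.7 CPM on NCD and 150, 122 and 152 CPM on HFD (0.76, SE 0.162, adjusted p = 0.0465 by edgeR). In the fit without NCD replicate 1, Sh2b2, an adaptor of the insulin receptor also called APS, was lower (-1.40, SE 0.230, adjusted p = 0.0148 by edgeR), as was Irs4. Irs4 had 300, 30 and 12 counts on NCD and 0 in each HFD library, at least 72.6-fold lower against a floor of 3 counts per library, and at least 8.01-fold without NCD replicate 1. The larger fold rested mostly on NCD replicate 1, at 9.13 CPM against 0.502 and 0.223 CPM in the other NCD mice. This order followed the seminal vesicle share of the NCD libraries (58.6%, 11.2% and 2.3%), whose part in the Irs4 counts was not tested.

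Of 12 genes of PI3K, AKT and mTORC2, 1 rose. Pik3cd, the p110δ catalytic subunit best known from leukocytes, was at 16.0, 25.6 and 21.7 CPM on NCD and 61.4, 71.8 and 118 CPM on HFD (1.99, SE 0.315, adjusted p = 0.0253 by edgeR). Pik3cb, the widely expressed p110β subunit, was lower in the fit without NCD replicate 1 (-0.92, SE 0.231, adjusted p = 0.0423). The summed level of 9 macrophage markers was higher on HFD, as was Pik3cd, at 225 to 542 CPM on NCD and 1758 to 3360 CPM on HFD. The sum was 3360, 1758 and 2324 CPM in HFD replicates 1, 2 and 3, where Pik3cd was at 61.4, 71.8 and 118 CPM. Of these markers 5 of 9 rose with all mice and 9 of 9 without NCD replicate 1, and their part in the pathway results was not tested.

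None of 13 genes listed as AKT targets, direct or further downstream, passed with all mice by edgeR. Of the 13, 1 was at an unadjusted p under 0.05 and 1 was called by DESeq2. Without NCD replicate 1, 3 were lower. They were Pde3b, the phosphodiesterase through which insulin restrains lipolysis (-1.34, SE 0.312, adjusted p = 0.0360), Foxo1, a transcription factor that AKT excludes from the nucleus (-0.88, SE 0.160, adjusted p = 0.0188), and Eif4ebp1, a translation repressor (-0.76, SE 0.186, adjusted p = 0.0395). In NCD replicate 1 these 3 genes were at 121, 65.6 and 69.3 CPM, in each case the lowest NCD value. With all mice their log2 fold changes were -0.94, -0.63 and -0.46 (adjusted p = 0.303, 0.227 and 0.454 by edgeR).

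Of 15 negative regulators, 2 rose with all mice. Enpp1, a membrane pyrophosphatase that can bind and inhibit the insulin receptor, was at 3.17, 2.99 and 2.61 CPM on NCD and 8.13, 12.0 and 17.9 CPM on HFD (2.12, SE 0.337, adjusted p = 0.0254 by edgeR). Ptpn1, the phosphatase PTP1B that removes phosphate from the receptor, was at 45.6, 55.6 and 56.4 CPM on NCD and 86.6, 104 and 154 CPM on HFD (1.13, SE 0.248, adjusted p = 0.0496). Both stayed past the threshold without NCD replicate 1, at 2.19 and 1.05.

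Of 26 genes of GLUT4 trafficking, 2 rose with all mice, Tbc1d1 and Lnpep. Lnpep encodes IRAP, an aminopeptidase that travels in GLUT4 vesicles, and was at 12.9 to 15.2 CPM on NCD and 24.4, 23.9 and 25.7 CPM on HFD (0.78, SE 0.146, adjusted p = 0.0357 by edgeR). Without NCD replicate 1, Lrp1, another cargo of these vesicles, was higher as well (1.11, SE 0.220, adjusted p = 0.0238). In that fit Ralgapa2, a subunit of the RAL GTPase-activating complex that AKT phosphorylates (-1.80, SE 0.207, adjusted p = 0.00746), and Sort1, the sortilin that helps form the vesicles (-0.97, SE 0.229, adjusted p = 0.0365), were lower.

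Of 10 other genes of the hexose transporter (Slc2a) family, not all of which carry hexoses, 2 fell with all mice. Slc2a5, the fructose transporter GLUT5, had 69, 173 and 222 counts on NCD and 0, 0 and 5 counts on HFD (adjusted p = 0.0320 by edgeR). Slc2a13, a proton-coupled myo-inositol transporter, was at 9.71, 28.2 and 37.3 CPM on NCD and 3.22, 4.11 and 1.80 CPM on HFD (-3.04, SE 0.582, adjusted p = 0.0369). In the fit of 5 mice, Slc2a8, the intracellular transporter GLUT8, was lower (-0.60, SE 0.143, adjusted p = 0.0378) and Slc2a9, a urate transporter, was higher (1.13, SE 0.213, adjusted p = 0.0206).

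The genes whose log2 levels were most like those of Slc2a4 over the 6 mice, among 9893 genes with a mean of at least 10 CPM, were Lonp2, Tmx2, Ldhb, Wdsub1 and Tmem143. Lonp2 followed it most closely (Pearson r = 0.9996 across 6 mice that share their diets and library composition, a description only). Its levels were 110, 196 and 220 CPM on NCD and 120, 113 and 88.3 CPM on HFD, so that NCD replicate 1 was again inside the HFD range. Without NCD replicate 1 the 5 were Slmap, 4930453N24Rik, Lrig1, Abcd2 and Lonp2, of which Lonp2 was in both.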

How the data were processed

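RNA-seq of gWAT was analysed from 6 mice, 3 per diet. The authors deposited raw read counts per gene, with no normalization, listed by NCBI gene identifier. The submitters' processing notes name bcl2fastq 2.20.0, Trimmomatic, HISAT2 2.1.0, StringTie 1.3.4d, DESeq2 and mm10/GRCm38, while the use of strand in counting is not given. The labels name a stranded TruSeq mRNA kit. Every column had a sample (0 were left over). Symbols were found for 19742 of 19790 identifiers (0.629% of counts had none) in RefSeq's GRCm38.p6 table, and exon lengths for 17793 in GENCODE vM21. Reads of paralogues such as the IRS or AKT genes may be shared where they are alike.

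Genes were kept by filterByExpr (at least 10 counts, total of at least 15). TMM factors and the quasi-likelihood test glmQLFTest came from edgeR 4.0.16 under R 4.3.3. P-values were adjusted by Benjamini-Hochberg over the kept genes and called under 0.05. Standard errors were derived from each log2 fold change and its F statistic (size over root F). CPM and FPKM were computed here. Count ratios within a library were compared by exact two-sided permutation tests over mice. Alternatives are other scalings and filters, limma 3.58.1, DESeq2 1.42.0, a replicate block and each mouse left out. Depth was 49575113 to 66360046 counts, so the spread between mice limits precision for most genes; the floor of 3 counts covers counting error only. Chi-square checks of replicate pairs found no duplicate libraries. The deviations of same-numbered mice correlated at -0.0565, -0.0457 and 0.00965, which gave no sign of pairing. Seminal vesicle RNA varied among the NCD mice and was nearly absent on HFD, so this check could not exclude pairing. Numbers are those of the sample titles; the count column of HFD replicate 3 is numbered 4, so the third pair and the block join columns whose numbers differ.

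The members, gene lists and marker lists were chosen with earlier results of these data known. Named genes are the 8 members and the partner genes of the 8 ratios. From each pathway list come up to 4 genes of largest change past the threshold with 6 mice, and up to 4 more past it only without NCD replicate 1. One gene that this rule names is not reported here. For likeness to Slc2a4, log2(CPM + 1) was used and 5 genes are named. Irs3 and the single adipocyte markers Car3, Cfd and Lep were named after their values were seen. Marker lists for 12 cell types were summed; those not given elsewhere are in the closing section.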

Additional observations from a re-analysis of the deposited data

How the results depend on the processing

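Irs1, Pik3r1, Slc2a4, Akt2, Tbc1d4, Grb14 and Irs2 kept their direction in 16 of 16 alternative settings, and Insr in 15, turning to 0.25 with total counts (-0.19 relative to the median of all genes, which that scaling moved from -0.078 to 0.45). Irs1 and Pik3r1 passed the threshold in 9 of 16 settings each, Slc2a4 in 2, Akt2 and Tbc1d4 in 1. The number of members lower on HFD, 2 in the report, was 0 with total counts, 0 with the replicate block, 3 with DESeq2, and 0 to 5 with 1 mouse left out, the 5 being without NCD replicate 1. In the blocked fit Irs1 was at -1.45 (adjusted p = 0.0857 by edgeR) and Pik3r1 at -1.74 (0.0679). The genes past the threshold, 1139 in the report, were 3904 with DESeq2, 803 with no filter, 13 with the replicate block and 2 to 3234 with 1 mouse left out; the share that was higher was 74.6% in the report, 55.1% with DESeq2, 46.2% with the block and 51.5% without NCD replicate 1. The pathway list genes past it, 8 in the report, were 3 with total counts, 5 with limma after quantile normalization, 24 with DESeq2, 0 with the block and 0 to 20 with 1 mouse left out. The 5 members past it without NCD replicate 1, all lower, became 5 lower and 1 higher when HFD replicate 1 was left out as well. The counts were 6 lower without HFD replicate 2 and 4 lower without HFD replicate 3, with 0 higher in both. Leaving out NCD replicate 2 or 3 as well left 1 NCD mouse, assumed to vary like the HFD mice, so no count is given there. The ratio Insr/Igf1r turned to -0.039 without NCD replicate 1, and Slc2a4/Adipoq to 0.50 with Car3 and 1.52 with Cfd as the partner. With 1 mouse left out the ratio differences were -2.40 to -1.89 for Irs1/Irs2, -1.47 to -1.08 for Pik3r1/Pik3r2, -2.13 to -1.38 for Tbc1d4/Tbc1d1 and -1.57 to -1.36 for Slc2a4/Adipoq, -0.99 to -0.59 for Grb14/Grb10, -1.45 to -0.38 for Akt2/Akt1, -2.45 to -0.024 for Slc2a4/Slc2a1 and -0.039 to 1.84 for Insr/Igf1r. The cause of these shifts was not tested.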

Other observations

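Socs3, a cytokine-induced inhibitor that binds the insulin receptor and IRS proteins, had the highest log2 fold change of the 86 pathway genes but did not pass, and is named after its values were seen. It was at 4.81, 9.70 and 8.99 CPM on NCD and 9.50, 66.8 and 125 CPM on HFD (3.10, SE 0.891, adjusted p = 0.0838 by edgeR, and 2.86 without NCD replicate 1). HFD replicate 1 lay within the NCD range and the other HFD mice were far above it. Trarg1, a protein of GLUT4 vesicles with expression largely in fat, was at 76.0, 319 and 391 CPM on NCD and 352, 394 and 306 CPM on HFD (0.42, SE 0.567, adjusted p = 0.645, and -0.0034 without NCD replicate 1). Slc2a4 was at 68.9 CPM in the same NCD replicate 1, so both genes had their lowest NCD level there, while the HFD mice were near the other NCD mice for Trarg1 and far below them for Slc2a4.

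The makeup of the transporter family varied widely between mice. Slc2a4 held 26.0%, 70.2% and 73.1% of the reads per kilobase of 11 Slc2a family genes on NCD and 52.7%, 47.8% and 31.0% on HFD. Slc2a1 held 40.2% in NCD replicate 1, against 3.94% to 25.8% in the other mice. These shares overlapped between the diets.

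Sums of marker genes differed between the mice as follows, in CPM. Smooth muscle markers were at 6542, 768 and 229 in NCD replicates 1, 2 and 3 and at 216 to 303 on HFD. In the same order, epithelial markers were at 1189, 120 and 28.5 and at 16.9 to 81.8. Skeletal muscle markers were at 393, 40.8 and 13.1 and at 3.55 to 8.55, with Myh4, Myh1 and Myh2 at 0 in some libraries. The NCD values of these sums fell in the order of the seminal vesicle share. As ranges on NCD and then on HFD, endothelial markers were at 276 to 848 and 850 to 1034. Stromal progenitor markers were at 929 to 1291 and 1163 to 1695, and mesothelial markers at 87.9 to 213 and 152 to 489. T cell markers were at 6.57 to 13.1 and 5.88 to 12.3, B cell markers at 4.08 to 17.1 and 5.44 to 17.4, and erythroid markers at 123 to 411 and 253 to 316. Their part in the results for the insulin signalling genes was not tested.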
